A study of Mus musculus with 4 samples.

Results

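Under dithiothreitol, 55 spliced regions in 54 genes combined a splice length of at least 50 bp with at least 5 supporting reads. These regions were chosen by those 2 measured values alone, out of the 2533 regions listed for dithiothreitol and the 2588 listed for both treatments of the series, so the numbers of reads and the lengths given here describe the selection and are not tested. A supporting read is a read that did not map to the genome in 1 piece and that mapped once it was cut into a left and a right part. The splice length is the number of bases left out between those parts. RNA-Seq of mouse embryonic fibroblasts (MEFs) of strain C57BL/6 was used, with 4 libraries in all and 1 library per group, so no value has a replicate check. The list described here came from Ire1α heterozygous (Het) cells treated for 4 hours with 1 mM dithiothreitol (Dtt), which reduces disulfide bonds, and it left out regions that also had reads in an Ire1α knockout (KO) line, whose allele removes the kinase and RNase domains. The second list came from Het cells treated for 4 hours with 500 nM thapsigargin (Tg), which blocks the calcium pump of the endoplasmic reticulum (ER), against a KO line made with a floxed allele that loses the kinase domain. By the labels the KO cells received no treatment in either experiment, whereas by the methods they did. The KO columns held no number for any of the 2533 Dtt regions, so a Het level could not be set against a KO level, and the part of sequencing depth, treatment or genotype in a region's absence from the KO library was not tested.

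IRE1α is a sensor of unfolded proteins in the ER, and its RNase domain cuts Xbp1 mRNA at a pair of stem loops without the spliceosome. The spliceosome removes introns that nearly always begin with GT, at the donor site, and end with AG, at the acceptor site. It can also leave out whole exons or use a donor or acceptor next to the usual site, and transcripts that start at another promoter bring other first exons with donors of their own. Xbp1, with 173 reads at 26 bp, was in the list but is shorter than the limit used here.

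The 55 regions held 331 supporting reads, which was 5.14% of the 6436 reads of the Dtt list. They ranged from 5 to 12 reads, with a median of 5, and from 77 to 28768 bp, with a median of 1194 bp. Zfp498 had 12 reads, Trp53 and Senp6 had 10 each, Abi3bp had 9, and Canx, Mrpl28 and Bub3 had 8 each. The exact 95% Poisson interval was 6.20 to 21.0 reads for Zfp498 and 1.62 to 11.7 reads for a region with 5 reads. The intervals of the highest and the lowest members overlapped, and neighbours in this order differed by less than their counting error. These intervals cover counting error only. The depth of the library is not in the list, so the counts are not scaled.

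**Figure D1:**
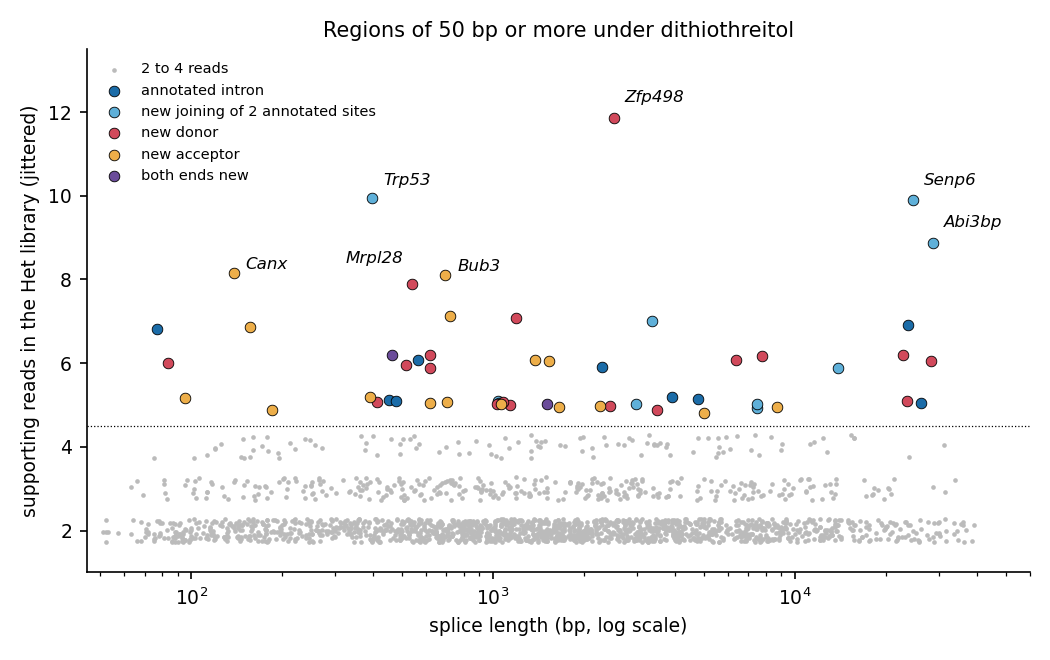
Supporting reads of each Dtt region of 50 bp or more (vertical axis, whole numbers with a small random shift) against its splice length in bp (horizontal axis, log scale). Coloured points are the 55 regions with 5 or more reads by kind of junction, from 77 to 28768 bp, and grey points below the dotted line are the 1999 regions with 2 to 4 reads.

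The bases at both ends of the regions with 7 or more reads, and of the second region of Igfbp2, are shown because the reads place the gap between them. The kind of junction given further on comes from whether these positions match annotated sites, and the bases had a part in it. Where a gap could be placed in several ways, an annotated intron was preferred, then GT-AG, GC-AG or AT-AC ends, then annotated sites. Regions with no GT-AG placement formed a kind of their own, unless they were an annotated intron. Coordinates are the removed bases on the mouse assembly mm9. Each donor line gives the last 8 bases kept and the 12 bases removed next to them, and each acceptor line gives the last 18 bases removed and the 8 bases kept after them, 5′ to 3′ on the strand of the gene. Capitals mark the GT and the AG of the removed bases.
Zfp498 donor, chr5:146044654-146047176, plus strand: ggcggtggGTgagaagaggg
Zfp498 acceptor: tatggggattctccttAGgttccatg
Trp53 donor, chr11:69400476-69400873, plus strand: tggaaactGTgagtggatct
Trp53 acceptor: tctttgtcccatccacAGccatcacc
Senp6 donor, chr9:79915380-79940073, plus strand: cctgaaagGTacgctcgggt
Senp6 acceptor: ctgtggatctttttgcAGttaaatcg
Abi3bp donor, chr16:56613834-56642601, plus strand: caaaattgGTaattctgcat
Abi3bp acceptor: attatgtctttcctttAGcacccagg
Canx donor, chr11:50110637-50110775, minus strand: gaagcttgGTgagcggagtc
Canx acceptor: tattttctgtcttagaAGagaaacag
Mrpl28 donor, chr17:26261664-26262201, plus strand: aagcagggGTtagtgcactc
Mrpl28 acceptor: atgtgaaccttctgccAGacccctaa
Bub3 donor, chr7:138705121-138705811, plus strand: tgatcaagGTattaatatag
Bub3 acceptor: atgatttcactgtggcAGgatttgga
AA408296 donor, chr1:194940082-194940798, minus strand: gatgccagGTaacgctaccc
AA408296 acceptor: ctccgaaattacttcaAGaaagaaga
Igfbp2 donor, chr1:72872049-72895659, plus strand: gttgggagGTgaggagaagg
Igfbp2 acceptor: tcctctctttctctgcAGacagtgat
D10Ertd610e donor, chr10:126621291-126621447, minus strand: gatttgagGTacgggaatgg
D10Ertd610e acceptor: cttgttgcgccttctcAGaggccatg
Sf3a2 donor, chr10:80266469-80266545, plus strand: ctttcaagGTagcgacccta
Sf3a2 acceptor: ctccttggggtgctgcAGcctctgac
Cenph donor, chr13:101530150-101533504, minus strand: gagactacGTatgtaggatt
Cenph acceptor: atttttctttaattacAGggccttat
Dnttip1 donor, chr2:164583558-164584751, plus strand: ctggcatgGTgtgagtaggg
Dnttip1 acceptor: ttttttccttctgagcAGatggaaac
Igfbp2 second donor, chr1:72872061-72895659, plus strand: ggagaaggGTaaggatgcac

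Each of the 55 regions could be placed so that the removed bases began with GT and ended with AG on the strand of its gene. Among all 2054 Dtt regions of 50 bp or more, 91.1% could be placed this way. A gap can slide over equal bases without a change in the joined sequence, and the members had 1 to 7 such placements, with a median of 3. Of the 1999 regions of 50 bp or more with 2 to 4 reads, 1816 had GT-AG ends, or 90.8% (95% Wilson interval 89.5 to 92.0%), against 100% (93.5 to 100%) of the members. The difference was 9.15 percentage points (95% interval 2.52 to 10.5), with p = 0.0131 in a two-sided Fisher's exact test and 0.0522 after Benjamini-Hochberg adjustment over the 4 measures tested. It thus missed the threshold of 0.05 as tested, and passed it in 2 of 7 alternatives.

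Annotated splice sites were found at nearly all members. In the GENCODE vM1 annotation, 53 of 55 members, or 96.4%, had an annotated splice site on the strand of their gene at 1 or both ends. The background over all Dtt regions of 50 bp or more was 93.0%. Both ends were annotated in 19 members, or 34.5%, beside a background of 36.0%. The removed bases were an intron of the annotation in 9 members, or 16.4%, beside a background of 17.7%. None of these 3 shares passed Fisher's exact test against the regions with 2 to 4 reads (p = 0.429, 0.887 and 1.00; adjusted p = 0.859, 1.00 and 1.00). The differences were 3.47 percentage points (−5.28 to 6.37), −1.52 (−12.9 to 11.8) and −1.40 (−9.10 to 10.6), so differences within those bounds were not detectable with 55 regions.

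The 55 regions fell into 5 kinds of junction. New donors joined to an annotated acceptor were seen in 18 regions, or 32.7% (95% Wilson interval 21.8 to 45.9%). Their share was 25.8% in the regions with 2 to 4 reads. New acceptors joined to an annotated donor were seen in 16 (29.1%, 18.8 to 42.1%), against 27.4%. New joinings of 2 annotated sites were 10 (18.2% against 18.1%) and annotated introns 9 (16.4% against 17.8%). Regions new at both ends were 2 (3.64% against 2.00%). The 95% Wilson intervals overlapped those of the regions with 2 to 4 reads for each of these kinds. A further kind without GT-AG ends held 0 members and 175 of the regions with 2 to 4 reads, or 8.75% (7.59 to 10.1%). It leaves out annotated introns with other ends, and 4 regions whose gene was not found.

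**Figure D2:**
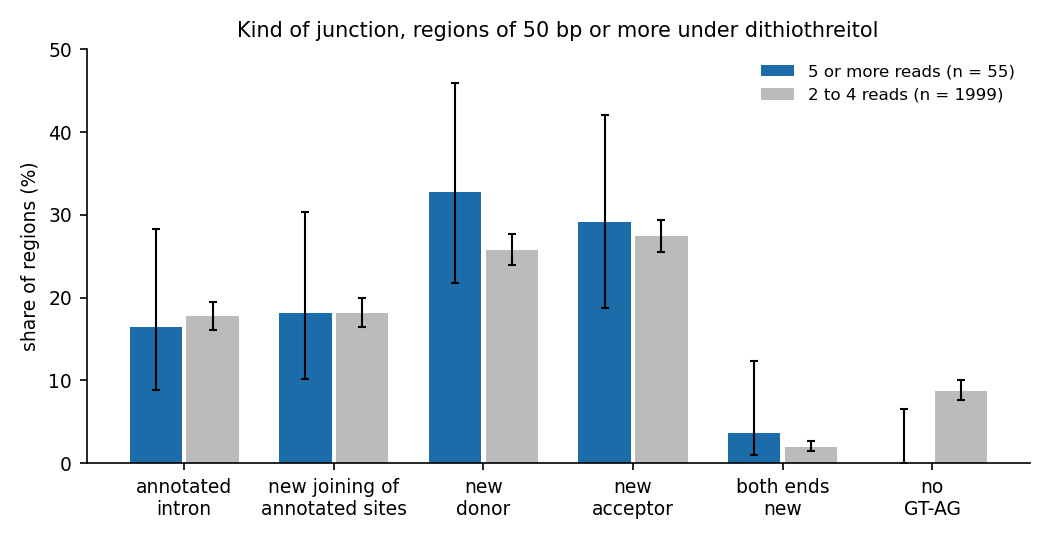
Share of regions (vertical axis, %) of each kind of junction among the 55 Dtt regions of 50 bp or more with 5 or more reads (blue) and the 1999 with 2 to 4 reads (grey), with 95% Wilson intervals. The intervals overlap for every kind except regions without GT-AG, of which the members hold 0.

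Trp53, the tumour suppressor and transcription factor p53, and Senp6 had the most reads of the regions that joined annotated sites in a new way. The 10 reads of Trp53 joined exon 2 to exon 4 of Trp53-001 across 398 bp and left out an exon of 22 coding bases (chr11:69400476-69400873). The 10 reads of Senp6, a protease that removes SUMO chains, joined exon 1 to exon 4 across 24694 bp, leaving out 2 exons with 152 coding bases. A second region of Senp6, with 2 reads and 36121 bp, began at the same donor and was an intron of the annotation. The longest member was that of Abi3bp, a protein of the extracellular matrix, where 9 reads joined exon 21 to exon 23 of the 40 exons of Abi3bp-202 across 28768 bp and left out 63 coding bases. Regions of 29235 and 31404 bp, with 2 reads each, ended at the same Abi3bp acceptor and began 467 and 2636 bp upstream, also at annotated donors.

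In Cenph, a kinetochore protein, 7 reads joined exon 7 to exon 9 across 3355 bp and left out 164 coding bases, and a region of 6630 bp with 2 reads ended at the same acceptor. Eya4, a phosphatase and transcriptional coactivator, had 6 reads across 13844 bp that left out 93 coding bases. Of the members with 5 reads, Eif3h, a subunit of translation initiation factor eIF3, left out 150 coding bases across 7499 bp, and Klhdc8a left out 216 across 1039 bp. Hbegf, a growth factor that binds the EGF receptor, left out 178 across 7482 bp, and Rpl35, a protein of the large ribosomal subunit, left out 82 across 2966 bp. Together 8 of these regions left out 1 exon and Senp6 left out 2. The last of the 10, in Tnpo2, a nuclear import receptor, had 5 reads across 1043 bp and joined a donor inside intron 1 of the coding transcript, which another transcript uses, to exon 2 in the 5′ UTR.

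Klhdc8a and Hbegf each had a further region nearby. A Klhdc8a region with 3 reads and 356 bp began at the same donor and ended at a new acceptor 683 bp before that of the member. In Hbegf, a region of 707 bp with 2 reads and a new acceptor lay 156 bases from the member.

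Among the 9 annotated introns, the region of Igfbp2, a secreted protein that binds insulin-like growth factors, had 7 reads and 23611 bp, and matched the first intron of Igfbp2-002 in its 5′ UTR. The second Igfbp2 member, with 5 reads and 23599 bp, began 12 bp farther downstream at a new donor and ended at the same acceptor. Igfbp2 was the only gene with more than 1 member. Regions of 16459 and 24125 bp, with 2 reads each, also ended there or within 5 bp of it, so 4 Igfbp2 donors led to this acceptor or to a site within 5 bp of it. Sf3a2, a subunit of the U2 snRNP, had 7 reads and the shortest member at 77 bp, an intron between coding exons 7 and 8 of Sf3a2-004. Each of the 9 introns belonged to few of the transcripts of its gene, 2 of 5 for Sf3a2 and 1 each for the other 8, whose genes had 4 to 25 transcripts. Transcripts were not counted for the annotated introns with 2 to 4 reads. The authors left out regions near known junctions, and the part of that filter was not tested.

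The intron of Nisch, which encodes the integrin-binding protein nischarin, had 6 reads and 2301 bp and was listed for 1 of 25 transcripts. That transcript is annotated as a target of nonsense-mediated decay (NMD), the pathway that degrades mRNAs with early stop codons. The introns of Rabepk (5 reads, 4777 bp), a Rab9 effector, and Fam76b (5 reads, 475 bp) were also listed for an NMD transcript only. How many annotated introns with 2 to 4 reads were listed this way was not counted. In Fam76b, a second annotated intron of 120 bp, with 4 reads, followed 58 bases after the member, so the reads covered both sides of a stretch of 58 bases that is exon 8 of that transcript. Beside that of Igfbp2, introns in the 5′ UTR were seen in Cav1 (6 reads, 562 bp), the main protein of caveolae, in Serpinb6a (5 reads, 3922 bp), a serine protease inhibitor, and in Galnt1 (5 reads, 26247 bp), an enzyme of O-glycosylation. Cav1 had a further region with 2 reads and 710 bp at the same acceptor, whose donor lay 148 bp from that of the member.

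New donors lay inside an intron in 13 of 18 members (72.2%, 95% Wilson interval 49.1 to 87.5%) and inside an exon in 5. For the 515 new donors of the regions with 2 to 4 reads, 79.8% (76.1 to 83.0%) lay inside an intron. Zfp498, a zinc finger protein and the member with the most reads, spliced from a donor 4 bp downstream of the annotated donor of intron 1 to exon 2 across 2523 bp. The donor of Mrpl28, a protein of the mitochondrial ribosome, lay 10 bp downstream of the annotated donor of intron 2 (8 reads, 538 bp). Dnttip1, a subunit of a histone deacetylase complex, had a donor 2 bp upstream of the end of exon 7 (7 reads, 1194 bp), and Usp19, a deubiquitinase, had a donor 4 bp upstream of the end of exon 25 (6 reads, 84 bp).

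The new donor lay in intron 1 of the transcript in 7 members, those of Zfp498, Zufsp, Myh9, Cxxc5, Sec31a, Igfbp2 and Pfkm. The donor of Myh9, the heavy chain of non-muscle myosin IIA, was the farthest, 5946 bp downstream of the end of exon 1 (6 reads, 22779 bp). Sec31a, a subunit of the outer COPII coat that carries cargo out of the ER, had a donor 189 bp downstream (6 reads, 7800 bp). The donors of Zufsp, a deubiquitinase (6 reads, 618 bp), Cxxc5, a CXXC zinc finger protein (6 reads, 28153 bp), and Pfkm, a phosphofructokinase (5 reads, 3493 bp), lay 648, 253 and 49 bp downstream. In these 5 genes the reads continued into exon 2 in the 5′ UTR. How many new donors of the regions with fewer than 5 reads lay in intron 1 was not counted. Whether the count of 7 members differs from that background was therefore not tested.

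Donors deeper in the gene were seen in Fam149b (6 reads, 6377 bp), 4502 bp into intron 6, and in Cd200 (5 reads, 1134 bp), a membrane glycoprotein, 1070 bp into intron 4. Tctex1d2 (6 reads, 616 bp), a dynein light chain, had a donor 931 bp into intron 3, and Cpsf6 (5 reads, 413 bp), a factor of pre-mRNA 3′ end processing, had a donor 240 bp into intron 5. The Arhgef19 donor (5 reads, 1032 bp) lay 176 bp into intron 2, and an annotated intron of 702 bp with 2 reads ended at the same acceptor. Donors inside exons removed 53 coding bases in Ctps (5 reads, 2443 bp), which makes CTP, 23 coding bases in Klhdc4 (5 reads, 1082 bp), and 179 bases of the 5′ UTR in Tmem106c (6 reads, 515 bp). A further Klhdc4 region, with 2 reads and 1114 bp, began at the same donor and ended at a new acceptor 32 bp beyond that of the member.

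New acceptors lay inside an exon in 10 of 16 members (62.5%, 38.6 to 81.5%) and inside an intron in 6. Of the 548 new acceptors of the regions with 2 to 4 reads, 42.2% (38.1 to 46.3%) lay inside an exon. Canx encodes calnexin, an ER membrane lectin that holds glycoproteins while they fold. Its 8 reads, across 139 bp, ended 3 bp downstream of the annotated acceptor of exon 14 and so removed 3 coding bases. The Bub3 region, of a spindle checkpoint protein, had 8 reads and 691 bp, and its acceptor lay inside intron 3, 1036 bp before exon 4. AA408296, listed as Diexf in the annotation, had 7 reads across 717 bp and removed 115 coding bases of exon 11. D10Ertd610e, listed as Arhgef25 in the annotation, had 7 reads across 157 bp and an acceptor 22 bp upstream of exon 13.

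Acceptors 5 bp downstream of the annotated site were used in Pofut2 (5 reads, 95 bp), an O-fucosyltransferase of the ER, and Pacs2 (5 reads, 392 bp), a sorting protein at contacts of ER and mitochondria. Acceptors upstream of the annotated site were those of Chd3 (5 reads, 185 bp), a chromatin remodeller, by 3 bp, of Adamts6 (5 reads, 704 bp), a secreted metalloprotease, by 5 bp, and of Hspg2 (5 reads, 1652 bp), which encodes perlecan, by 425 bp. Farther inside exons lay the acceptors of Zfp532 (6 reads, 1376 bp, 105 coding bases removed), Rin3 (5 reads, 8732 bp, 58), Nhlrc2 (5 reads, 619 bp, 34), Pvr (5 reads, 2267 bp, 224) and Ets1 (5 reads, 1065 bp, 152). Rin3 is an exchange factor of Rab5, Pvr an adhesion receptor and Ets1 a transcription factor. In Qrich1 (6 reads, 1526 bp) the acceptor lay 64 bp into exon 2 in the 5′ UTR, and a region of 1514 bp with 3 reads ended there too, from a donor 12 bp away. The Cbx1 region (5 reads, 4980 bp), of the heterochromatin protein HP1β, skipped exon 5 and ended inside intron 5, 381 bp before exon 6.

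The 2 members that were new at both ends were those of Mmp2 and Fam150a. Mmp2 is a secreted protease that degrades collagen, and its 6 reads removed 461 bases within the 3′ UTR of exon 13. The 5 reads of Fam150a removed 1508 bp within intron 1 of a transcript that the annotation lists as a lincRNA.

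**Figure D3:**
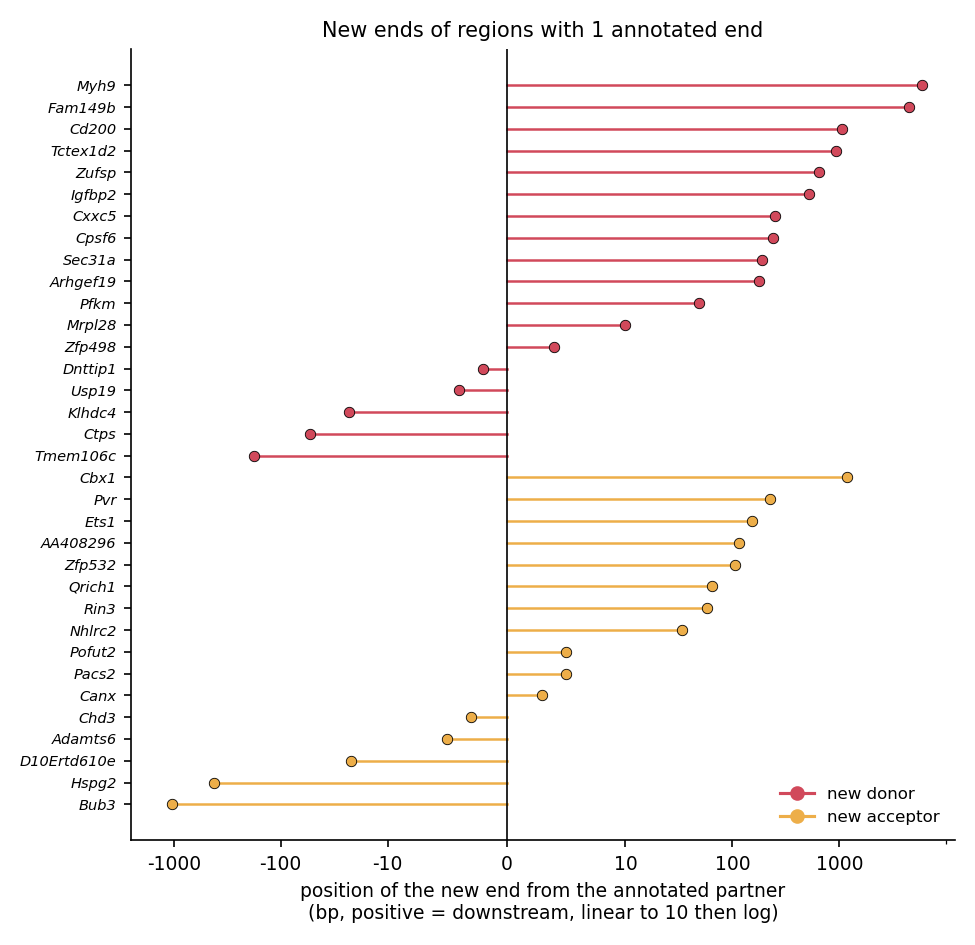
Position of the new end from the annotated partner of the same intron (horizontal axis, bp, positive values downstream, linear to 10 bp and then logarithmic) for the 18 members with a new donor (red) and the 16 with a new acceptor (yellow), 1 gene a line. The donors reach 5946 bp downstream in Myh9, and 9 of the 34 ends lie within 10 bp of the annotated site.

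Of the 34 members with 1 new end, 8 (23.5%, 12.4 to 40.0%) had that end within 5 bp of the annotated partner and 9 (26.5%, 14.6 to 43.1%) within 10 bp. Among the 1061 such regions with 2 to 4 reads the shares were 12.8% (10.9 to 15.0%) and 17.4% (15.3 to 19.8%). These distances were looked at after the values were seen, and their difference was not tested. The windows below hold the new site and the annotated site of the 9 members, with the 2 bases of each site in capitals. In the 4 members with a new donor, they show from 8 bases before the upstream site to 10 bases from the start of the downstream site.
Zfp498, chr5:146044642-146044663, plus strand: ccaaggcgGTggGTgagaagag
Mrpl28, chr17:26261646-26261673, plus strand: ttctcaagGCaagcagggGTtagtgcac
Dnttip1, chr2:164583550-164583569, plus strand: ctggcatgGTGTgagtaggg
Usp19, chr9:108402330-108402351, plus strand: gcagtgacGTggGTgagggcac

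The new donor is the downstream one in Zfp498 and Mrpl28 and the upstream one in Dnttip1 and Usp19. Zfp498 and Usp19 shared the 9 bases that begin at the upstream GT, and used the opposite member of the pair as the new site. The annotated donor of Mrpl28 begins with GC, whereas the new one begins with GT. The 5 acceptor windows run from 12 bases before the upstream AG to 6 bases after the downstream AG.
Canx, chr11:50110631-50110653, minus strand: attttctgtcttAGaAGagaaac
Pofut2, chr10:76729915-76729939, plus strand: cctttgcctcgcAGagcAGgaagaa
Chd3, chr11:69162018-69162040, minus strand: actgtttggcctAGcAGaagatg
Pacs2, chr12:114302027-114302051, plus strand: tctgccttgtgcAGtgcAGgacaca
Adamts6, chr13:105103697-105103721, plus strand: cttattttctggAGgtcAGgttgcc

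In Canx, Pofut2 and Pacs2 the new acceptor is the downstream AG, and in Chd3 and Adamts6 it is the upstream AG. The spacing was 3 bp in Canx and Chd3 and 5 bp in the other 3. Because the authors left out regions within 5 bp of a junction of the UCSC known genes, which were not used here, the match to GENCODE was also counted with both ends allowed to lie within 5 bp. By that count 17 of 55 members (30.9%) and 564 of 1999 regions with 2 to 4 reads (28.2%) lay at an annotated intron.

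In 22 members the junction removed only coding bases from a transcript whose exons held both flanking bases. The number of bases removed was a multiple of 3, which leaves the reading frame intact, in 6 of the 22 (27.3%, 13.2 to 48.2%), those of Abi3bp, Eya4, Klhdc8a, Eif3h, Canx and Zfp532. In the regions with 2 to 4 reads it was a multiple of 3 in 196 of 604 (32.5%, 28.8 to 36.3%). The other 16 members, Trp53 and Senp6 among them, removed 2 to 224 bases that were not a multiple of 3. The first base kept after the gap lay in the 5′ UTR in 14 of 55 members (25.5%, 15.8 to 38.3%) and in 173 of the 1999 regions with 2 to 4 reads (8.65%, 7.50 to 9.97%). This position was also looked at after the values were seen, and the difference was not tested.

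Splice sites were scored by how well their bases matched all annotated GT-AG introns, as a log2 odds score over 9 bases at donors and 23 bases at acceptors, with higher scores for closer matches. The 20 new donors of the members had a median score of 7.10, near the 7.17 of their 35 annotated donors, and the median of all 211777 annotated donors was 8.15. In the regions with 2 to 4 reads the medians were 6.68 for new donors and 8.24 for annotated donors. The 18 new acceptors had a median of 6.60, below the 8.62 of their 37 annotated acceptors and the 9.39 of all 208369 annotated acceptors. The new acceptors of the regions with 2 to 4 reads had a median of 6.28. Of the new acceptors of the members, 4 of 18 (22.2%) scored below the fifth percentile of annotated acceptors, close to the 121 of 588 (20.6%) of the regions with 2 to 4 reads. They were those of Nhlrc2 (−0.56), AA408296 (1.53), Zfp532 (1.61) and Rin3 (2.88). For new donors the shares below the fifth percentile of annotated donors were 3 of 20 (15.0%) and 104 of 555 (18.7%). The acceptor of Cbx1, at 17.96, reached percentile 99.7 of annotated acceptors. Scores are a description, since the placement with GT-AG ends and annotated sites was chosen for each region.

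**Figure D4:**
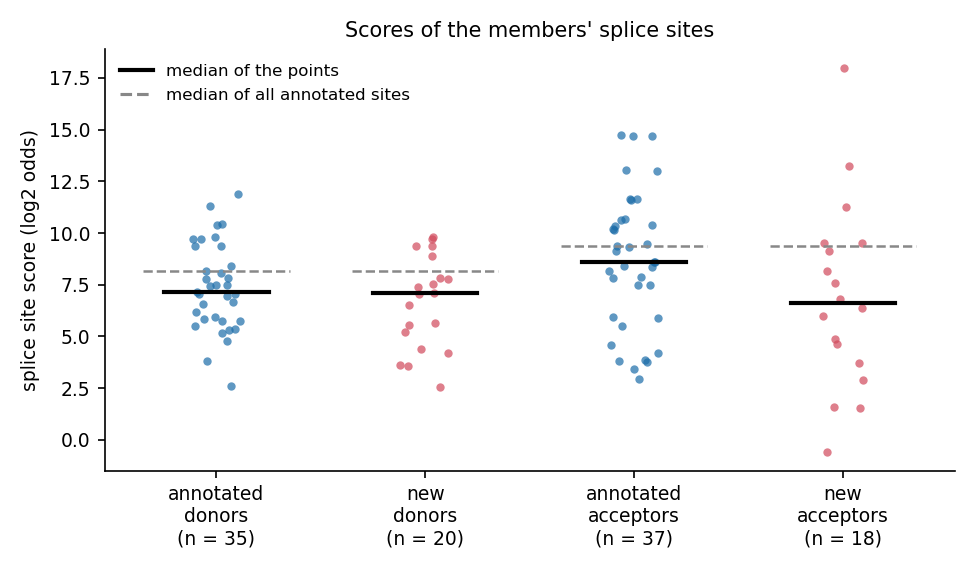
Splice site score (vertical axis, log2 odds) of the donors and acceptors of the 55 members, annotated (blue) and new (red), 1 point a site. Black bars are medians of the points (7.17, 7.10, 8.62 and 6.60 from left to right) and dashed lines are medians of all annotated sites (8.15 for donors and 9.39 for acceptors).

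The share of annotated introns was highest just outside the limit on reads. Just inside it, 28 regions had 5 reads, and just outside it, 106 regions had 4. Of the regions with 4 reads, 42 (39.6%, 30.8 to 49.1%) were introns of the annotation, against 5 of 28 (17.9%, 7.88 to 35.6%) with 5 reads, 80 of 330 (24.2%, 19.9 to 29.1%) with 3 reads and 233 of 1563 (14.9%, 13.2 to 16.8%) with 2. The intervals at 4 and 5 reads overlapped, and these groups were not tested against each other. With the border moved to 4 reads, 51 of 161 regions (31.7%) were annotated introns against 313 of 1893 (16.5%), a difference of 15.1 percentage points with an adjusted p = 3.00e-05 in Fisher's exact test. The direction of that comparison thus turned with the border. On the side of length, 34 regions reached 5 reads at a length under 50 bp. The longest of these were those of Poldip3 (39 bp, 17 reads), Myh9 (33 bp, 5 reads) and Xbp1, and no region with 5 or more reads lay between 39 and 77 bp.

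**Figure D5:**
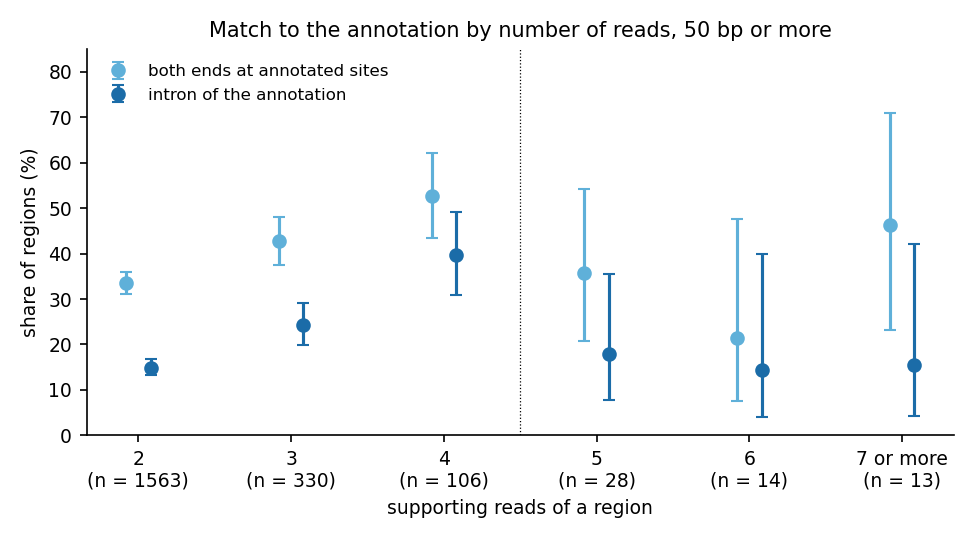
Share of Dtt regions of 50 bp or more (vertical axis, %) with both ends at annotated sites (light blue) and with an intron of the annotation (dark blue), by number of supporting reads (horizontal axis), with 95% Wilson intervals. The share of annotated introns is 39.6% at 4 reads and 17.9% at 5 reads, to the right of the dotted line that marks the limit used here.

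The 54 genes had 0 regions in the Tg list, which holds 55 regions from shorter reads, and 23 of the 1990 genes of the whole Dtt list (1.16%) had one there. A share of 0 of 54 is therefore near the background, and a comparison of treatments was not possible for these genes. In the Dtt list 28 of the 54 genes (51.9%, 38.9 to 64.6%) had a further region, against 306 of the 1657 genes (18.5%, 16.7 to 20.4%) with regions of 50 bp or more but no member. In 10 of the 54 genes (18.5%, 10.4 to 30.8%) a further region shared a boundary with the member within 5 bp, and in the 1657 genes 41 (2.47%, 1.83 to 3.34%) had regions that shared one. These shares were set side by side after the values were seen, the differences were not tested, and the expression level of the genes is not in the list. For 51 of 55 members, the 25 bases on either side of the gap each occurred once in mm9. For Trp53, Tctex1d2, Eif3h and Rpl35, 1 of the flanks occurred at more places, so a part of a read could have come from a copy of that exon. The joined bases, 12 from each side, occurred ungapped nowhere in mm9 for any member.

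Related genes were looked up in lists drawn up with the members known, as counts with no test. Each list was drawn up around a member, which its count includes, and over the whole annotation 1938 of 22238 protein-coding gene symbols (8.71%) had a region in the Dtt list, whether or not they were expressed. That share is therefore no matched background, and whether a count is particular to its list was not tested. Of 9 genes of the calnexin cycle, Canx and Pdia3 had a region, and that of Pdia3 was 2 bp long with 5 reads. Of 11 genes of the COPII coat, Sec31a, Sec23a, Sec24b and Sec24c had regions, with 2 reads each outside the member. In the p53 pathway 4 of 10 genes had regions, with 4 reads at 4 bp for Mdm2, the ubiquitin ligase of p53, 3 and 2 reads at 412 and 144 bp for Bbc3, which promotes apoptosis, and 2 reads at 744 bp for Ccng1. Of 14 genes of the mitotic checkpoint and kinetochore, 5 had regions, and Bub3 and Cenph were the members, beside Bub1b, Cenpa and Cenpt with 2 reads a region. Of 10 U2 snRNP factors, 5 had a region, with 4 reads at 1724 bp for Sf3a1, 4 reads at 1936 bp for Sf3b3, and 2 reads each for Sf3b2 and Sf3a3. Of 9 genes of insulin-like growth factor binding, Igfbp2 and Igfbp4 had regions, and that of Igfbp4 was 2 bp long with 10 reads.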

How the data were processed

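The authors mapped reads to mm9 and the junctions of the UCSC known genes with Bowtie, split unmapped reads at consecutive positions, mapped the parts without mismatches and joined split reads of equal splice length and nearby boundaries. They left out regions within 5 bp of a known junction, with fewer than 2 reads, or matched in the KO sample. The deposited values are raw counts of supporting reads and splice lengths in bp, and the tables held 0 further columns with numbers per sample.

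From these lists, regions were placed on the mm9 assembly (NCBIM37) with the GENCODE vM1 annotation. The gene was found by its listed symbol for 53 of 55 members, by an older symbol for 1 and by position for 1. Placements within the boundaries, or reached by sliding over equal bases, were searched on the strand of the gene. Donors were scored over 3 exon and 6 intron bases and acceptors over 20 intron and 3 exon bases. The shares of regions with GT-AG ends, at an annotated intron, and with both ends or at least 1 end at annotated sites were compared by two-sided Fisher's exact tests with Benjamini-Hochberg adjustment over the 4 shares and a threshold of 0.05. Each tests counting error within 1 library, and regions of 1 gene are not independent.

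Every member was named with its reads and length, except 1 that is not reported here. Regions with 7 or more reads, genes with more than 1 member, and members that share a boundary with another region were described in full. The members, lists and tests were chosen with earlier results of these data known. The alternatives were other limits on reads and length, 1 region per gene, other placements, strands and ends, and another part of the annotation. The steps were tested on simulated data. Tests were run in scipy 1.17.1 under Python 3.11.15, sequences were read with pysam 0.24.0, and plots were drawn with matplotlib 3.10.9.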

Additional observations from a re-analysis of the deposited data

How the results depend on the processing

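The number of members followed the limit on reads, with 161 regions at 4 or more reads, 27 at 6 or more and 13 at 7 or more, and was 52 to 58 when the limit on length was 100 or 26 bp or 1 region was kept per gene. The higher share of GT-AG ends among the members kept its direction in all 7 alternatives, by 6.40 to 9.95 percentage points, with adjusted p from 0.00261 to 1.00 in Fisher's exact test. In Fisher's exact test it passed the threshold with the border at 4 reads (6.97 points, adjusted p = 0.00261) and with placements within the listed boundaries only (9.95 points, adjusted p = 0.0338). The difference in annotated introns turned positive, by the same exact test, with the border at 4 reads (15.1 points), with both ends allowed within 5 bp (2.69 points, adjusted p = 0.868) and with protein-coding transcripts only (1.65 points, adjusted p = 0.849), and its adjusted p ranged from 3.00e-05 to 1.00 over 8 alternatives. The difference in regions with both ends at annotated sites turned positive, by the same exact test, with the border at 4 reads (11.5 points, adjusted p = 0.00621), with the border at 7 reads (10.2 points, adjusted p = 1.00) and with protein-coding transcripts only (0.277 points, adjusted p = 1.00). The share with at least 1 annotated end kept its direction and stayed short of the threshold in all 7 alternatives. The cause of these changes was not tested.

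With 1 library per group, leaving out a replicate was not possible, and no difference between genotypes or treatments has a replicate check. No paired analysis was possible because no comparison was made between libraries. A share of 0 of 55 allows up to 6.53% by the upper Wilson bound.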
